A study of Ambystoma mexicanum with 8 samples.

Results

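The let-7, miR-99, miR-100 and miR-125 microRNAs (miRNAs) were examined in regenerating axolotl forelimbs. They were taken by name, as the rows of the miRNA table named let-7, miR-98, miR-99, miR-100 or miR-125 with any letter, copy or arm, and the rule found 13 of the 143 miRNAs. These are 8 let-7 miRNAs of the 5p arm (let-7a, b, c, e, f, g, h and j), let-7i-3p, miR-99, miR-100, miR-125a and miR-125b. None of the 143 miRNAs is named miR-98.

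Forelimbs were amputated through the mid-zeugopod, the level of the radius and ulna, and the question was how small RNAs and mRNAs differ as the blastema, the mound of proliferating cells that rebuilds the limb, is formed. Tissue was collected at 3, 6 and 14 days post-amputation (dpa) and, as the uninjured reference, at 0 dpa. Each stage has 1 small RNA library and 1 mRNA library, each a pool of at least 4 tissues. The animals came from a stock centre, and their strain, age, genotype and sex are not given in the sources used here.

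miRNAs are short RNAs that guide silencing complexes to mRNAs, and they pair with their targets mainly through the seed, bases 2 to 8 from the 5′ end. The let-7 family was found in *Caenorhabditis elegans* as a timer of development. In vertebrates it is scarce in early embryos and stem cells, accumulates as cells differentiate, and represses growth genes, while the RNA-binding protein Lin28 blocks the maturation of its precursors. miR-100, let-7 and miR-125 lie together in a gene cluster in many animals, and mammals carry several copies of it.

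The sequences below are the tags that the study lists for these miRNAs, and they are shown because the family members differ by very few bases. Seeds are in capitals, and T stands for U.
let-7a: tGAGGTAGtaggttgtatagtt
let-7f: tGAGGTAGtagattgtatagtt
let-7c: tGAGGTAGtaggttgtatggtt
let-7b: tGAGGTAGtaggttgtgtgg
let-7g: tGAGGTAGtagtttgtgtagtt
let-7j: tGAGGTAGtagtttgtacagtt
let-7e: tGAGGTAGtggattgaatagtt
let-7h: tGAGGTAGtagtttgtgttgtt
let-7i-3p: cTGCGCAAgctactgccttg
miR-100: aACCCGTAgatccgaacttgc
miR-99: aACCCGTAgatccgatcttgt
miR-125b: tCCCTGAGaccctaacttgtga
miR-125a: tCCCTGAGacccttaacctgtga

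All 8 let-7 5p tags share 1 seed, miR-99 and miR-100 share another, and so do miR-125a and miR-125b. No other axolotl miRNA of the study's list carries any of these 3 seeds. With positions counted from 1 at the 5′ end, let-7f differs from let-7a by G12A and let-7c by A19G. let-7b differs from let-7a by A17G and A19G over its 20 bases, and it is the only let-7 5p tag shorter than 22 bases. let-7g (G12T and A17G), let-7j (G12T and T18C), let-7e (A10G, G12A and T16A) and let-7h (G12T, A17G and A19T) differ from let-7a by 2 or 3 bases. miR-99 differs from miR-100 by A16T and C21T. Over its 21 bases the miR-100 tag has 1 mismatch with the zebrafish tag and 1 with the bichir tag of that name. Of the 28 pairs of let-7 5p tags, 4 differ by 1 base and the most distant differ by 5. The tags of let-7a, let-7c, let-7f and miR-125b are identical to the zebrafish and bichir tags of the same names in the study's list. From those of the same name, let-7h differs by 2 bases in zebrafish and 3 in bichir, and let-7g by 1 and 2. let-7e and let-7j differ by 1 base in each. The let-7h tag is nearest to bichir let-7g, at 1 base. Names are those of the study and are not taken here to mean matching genes.

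The deposited values are log2 numbers of reads and each counts the reads of 1 tag, so reads that end elsewhere at the 3′ side are not in it. The 143 tags together hold 1297551, 901281, 1262929 and 1918841 reads at 0, 3, 6 and 14 dpa. Levels are given as cpm, reads per 1000000 of the library size after scaling with the trimmed mean of M values (TMM), which had factors of 1.39, 1.07, 0.843 and 0.799 in the same order. A log2 fold change past 0.58 in either direction, the cut-off of the study, is counted as a difference. Brackets hold 95% intervals, which cover counting error only. With 1 library per stage, variation between animals cannot be estimated and no test was possible.

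The libraries differ widely in composition. miR-21 took 1.92%, 46.1%, 43.1% and 39.7% of the reads at 0, 3, 6 and 14 dpa. The 6 muscle miRNAs (miR-1a, miR-1b, miR-133a, miR-206, miR-208b and miR-499) took 19.8, 4.58, 2.47 and 0.464% of the reads, and all 6 were lower than at 0 dpa at each later stage. miR-1d-3p, which is not in that list, was at 0.13 (0.05 to 0.22), -0.47 (-0.57 to -0.37) and -2.54 (-2.69 to -2.39) over 0 dpa on the log2 scale used below, with 2835, 1663, 1208 and 414 reads. miR-140, a cartilage miRNA, took 25.1, 5.67, 1.18 and 0.646%. The 6 epidermal miRNAs (miR-200a, miR-200b, miR-200c, miR-203a, miR-203b and miR-205) took 2.55, 2.21, 12.7 and 10.9%. Outside that list, miR-203c (2 reads at 0 dpa), miR-205a-3p and miR-429a-3p were at 4.29, 0.55 and 0.93 at 6 dpa over 0 dpa. At 14 dpa they were at 4.58, -0.35 and 0.90. The 4 leukocyte miRNAs (miR-142a, miR-150, miR-155 and miR-223) took 0.0839, 0.604, 0.408 and 0.111%. All 4 were above 0 dpa at 3 and 6 dpa, and 3 were above and 1 below it at 14 dpa. miR-146a-5p, not listed, had 4816, 2855, 6539 and 6993 reads, and miR-146b-5p 35, 0, 1 and 22. No miRNA of these lists was at 0 reads in any library. Fewer cells of a type and less of an miRNA per cell cannot be told apart in such pooled tissue, and the part of these shifts in the values below was not tested.

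As a group, the 13 miRNAs did not move one way. At 3 dpa 4 were above the cut-off (let-7f, let-7e, let-7i-3p and miR-100) and 3 below it (let-7h, let-7b and let-7c), where 28% and 27.3% of all 143 miRNAs were above and below. At 6 dpa 4 were above (let-7b, let-7e, let-7f and miR-100), against a background of 38.5%, and 7 were below (let-7h, let-7i-3p, miR-99, miR-125a, let-7c, let-7j and miR-125b), against 43.4%. At 14 dpa 2 were above (let-7b and let-7f; background 35%) and 6 below (let-7h, let-7i-3p, miR-99, miR-125a, let-7j and let-7c; background 39.2%). Their median log2 fold change was 0.16, -0.83 and -0.54 at 3, 6 and 14 dpa, beside 0.05, -0.23 and -0.05 over all 143. Scaled by total reads, 2, 1 and 0 of the 13 were above and 5, 8 and 10 below at 3, 6 and 14 dpa. With 13 miRNAs and backgrounds of this size, nothing is read from these counts about the group.

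Step by step, 1 of the 13 was above the cut-off at 6 over 3 dpa (let-7b; background 30.1%) and 6 were below it (let-7i-3p, let-7j, miR-99, miR-125a, let-7f and let-7c; background 39.2%). At 14 over 6 dpa 2 were above, let-7c at 0.70 (0.60 to 0.80) and let-7i-3p at 0.68 (-1.43 to 3.28) on 7 reads at 14 dpa and 3 at 6 dpa, beside a background of 27.3%. In the same step 2 were below, let-7e at -1.07 (-1.16 to -0.98) and let-7b at -0.75 (-0.82 to -0.69), beside 23.1%. Steps between these later stages were computed with TMM only, and no call in them was checked with another scaling.

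In order of their reads at 0 dpa the members were let-7a, let-7f, let-7g, let-7j, miR-100, miR-125b, let-7c, let-7e, let-7b, miR-125a, miR-99, let-7h and let-7i-3p, and no neighbours in this order had overlapping intervals. At 6 dpa the order was let-7a, let-7f, miR-100, let-7g, let-7b, let-7e, miR-125b, let-7j, let-7c, miR-125a, miR-99, let-7i-3p and let-7h. There the intervals overlapped for the neighbours miR-125b and let-7j, miR-125a and miR-99, and let-7i-3p and let-7h.

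**Figure D1:**
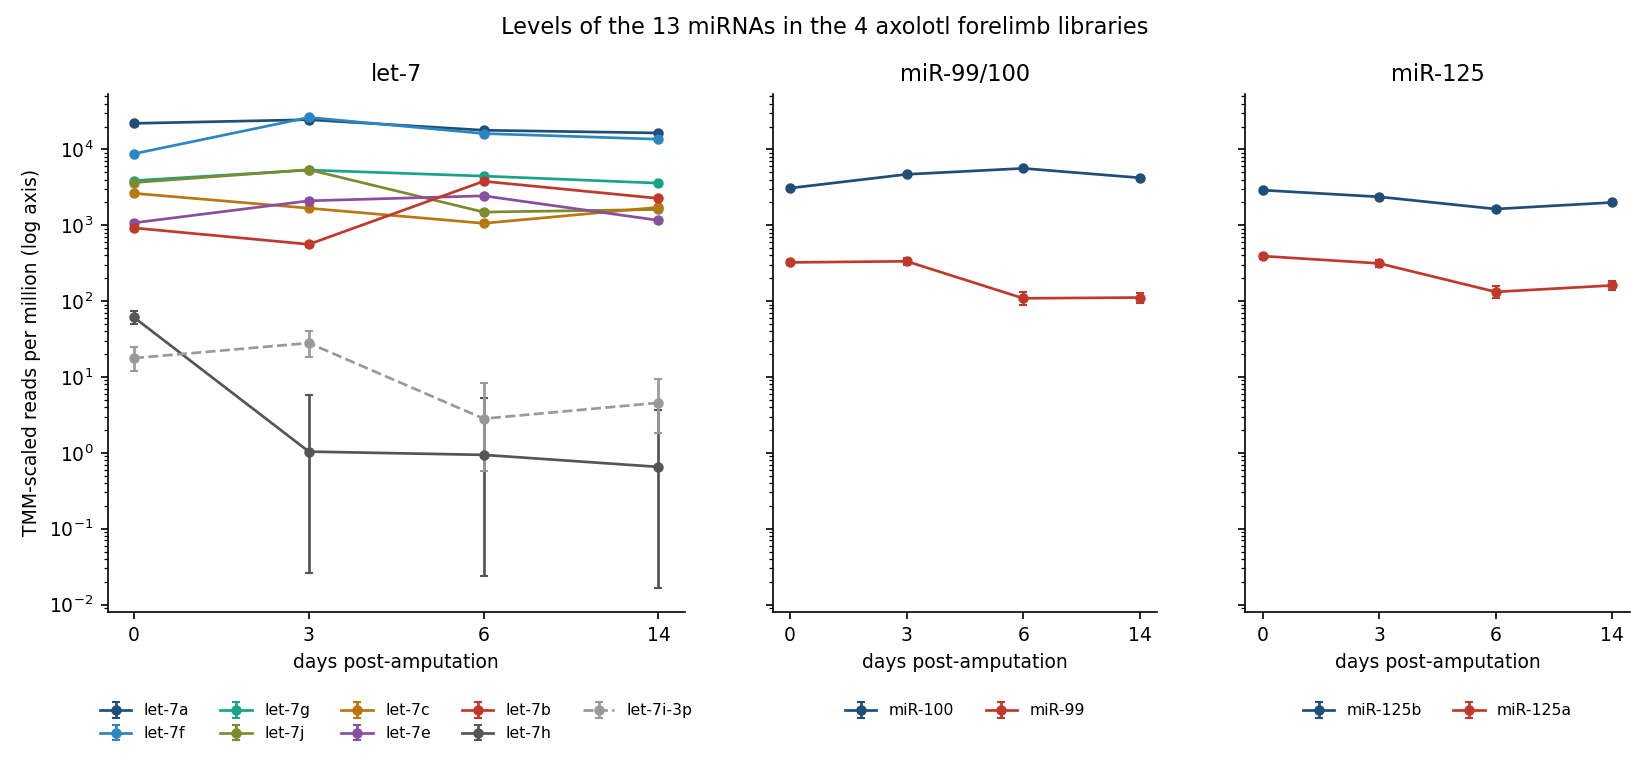
TMM-scaled cpm of the 13 miRNAs (log axis) in the libraries of 0, 3, 6 and 14 dpa, spaced evenly, with 95% counting intervals as bars. let-7a and let-7f are the highest at every stage, let-7b crosses let-7j, let-7c and let-7e between 3 and 6 dpa, and let-7h stands at 1 read in each library after 0 dpa.

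let-7a and let-7f, which differ by 1 base, were the most abundant members. let-7a had 39795, 23771, 19065 and 25261 reads at 0, 3, 6 and 14 dpa, or 22067, 24670, 17916 and 16482 scaled cpm. let-7f had 15815, 25449, 17244 and 20905 reads, or 8770, 26412, 16204 and 13640 scaled cpm. let-7f was highest at 3 dpa, while let-7a stayed within a narrower range on this scale.

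The log2 fold change of let-7f over 0 dpa was 1.59 (1.56 to 1.62) at 3 dpa, past the cut-off under every alternative. It was 0.89 (0.85 to 0.92) at 6 dpa, but 0.16 with total reads and 0.49 with the upper quartile, which end that call. The 14 dpa value was 0.64 (0.61 to 0.67), but -0.16 when libraries were scaled by total miRNA reads. That of let-7a was -0.30 (-0.33 to -0.28) at 6 dpa and -0.42 (-0.44 to -0.40) at 14 dpa. Under the alternatives these ranged from -1.02 to -0.10 and from -1.22 to -0.04, so that let-7a was below the cut-off at both stages with total reads and with the upper quartile. The 3 dpa value of let-7a was 0.16 (0.14 to 0.18), which turned to -0.22 with total reads.

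The ratio of let-7f to let-7a within a library does not depend on scaling. There were 0.397 (0.390 to 0.405), 1.07 (1.05 to 1.09), 0.904 (0.886 to 0.923) and 0.828 (0.812 to 0.843) reads of let-7f per read of let-7a at 0, 3, 6 and 14 dpa. The interval at 0 dpa lies below those of the regenerating stages, and let-7f exceeded let-7a at 3 dpa only. In rank among the 143 miRNAs, let-7f stood at 17, 4, 14 and 15, and let-7a at 7, 6, 9 and 12.

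**Figure D2:**
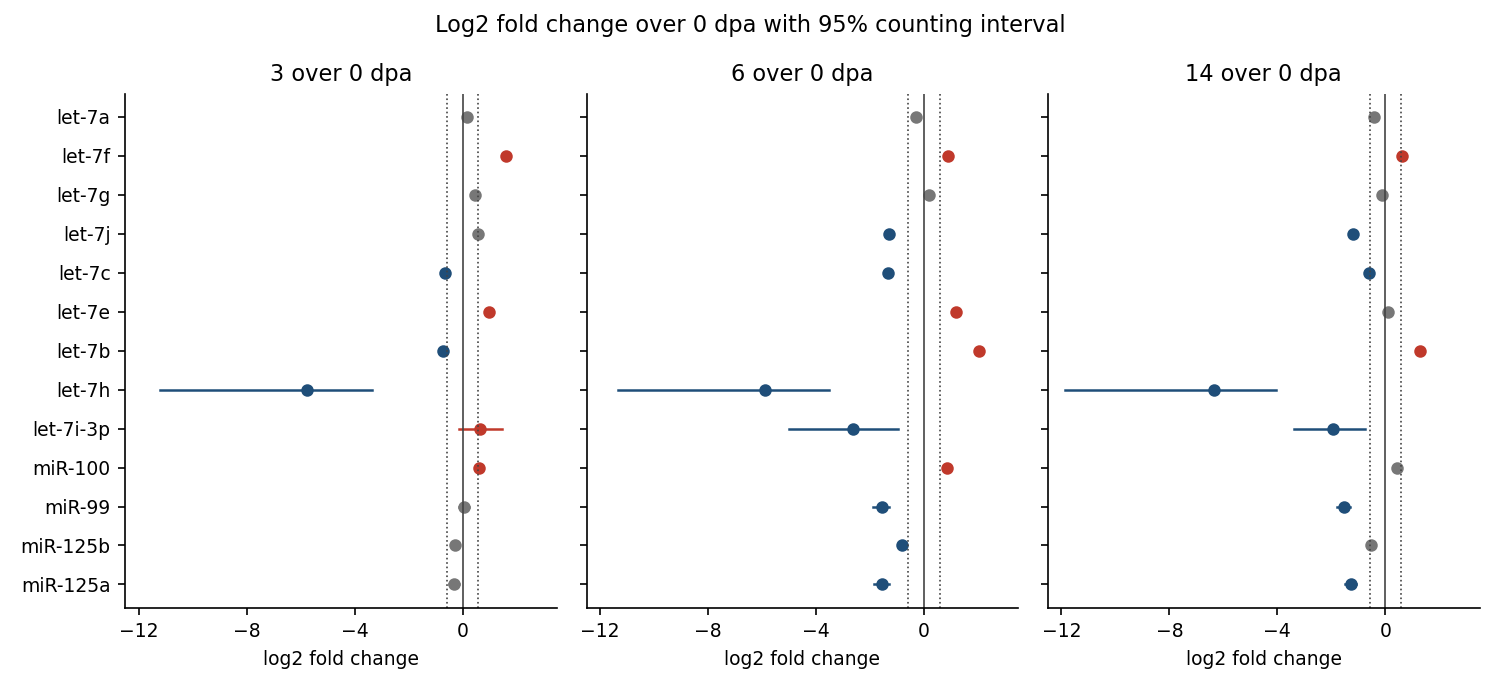
Log2 fold change of each of the 13 miRNAs at 3, 6 and 14 dpa over 0 dpa after TMM scaling, with 95% counting intervals; dotted lines mark 0.58 in both directions, red points lie above it, blue points below and grey points between. At 6 dpa the points run from -5.89 for let-7h to 2.04 for let-7b. The values of let-7a and miR-99 at 3 dpa, let-7g at 6 dpa and let-7e, let-7f, let-7g and miR-100 at 14 dpa change sign with another scaling.

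let-7b was low at 3 dpa and high at 6 and 14 dpa. It had 1664, 541, 4051 and 3466 reads at 0, 3, 6 and 14 dpa, or 923, 561, 3807 and 2261 scaled cpm. No other member was lowest at 3 dpa on this scale.

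Over 0 dpa, let-7b was at -0.72 (-0.86 to -0.58), 2.04 (1.96 to 2.13) and 1.29 (1.21 to 1.38) at 3, 6 and 14 dpa. Between 6 and 3 dpa the log2 fold change was 2.76 (2.63 to 2.89), the highest of the 13 miRNAs in that step. The value at 6 dpa lay between 1.32 and 2.25 under every scaling, prior count and filter tried. That at 14 dpa lay between 0.49 and 1.67, and the lowest of these, with total reads, was within the cut-off. Per read of let-7a there were 0.0418 (0.0398 to 0.0439), 0.0228 (0.0209 to 0.0248), 0.212 (0.205 to 0.220) and 0.137 (0.132 to 0.142) reads of let-7b at 0, 3, 6 and 14 dpa.

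The let-7b tag ends 2 bases before the let-7b tags of zebrafish and bichir in the study's list, with which it agrees over all of its 20 bases. Of the 143 axolotl miRNAs, 15 are counted on a tag of 20 bases. Their median log2 fold change over 0 dpa was 0.46, 0.62 and 0.45 at 3, 6 and 14 dpa, where the 77 miRNAs with a tag of 22 bases had 0.07, -0.30 and -0.47. The 14 miRNAs with 21 bases had medians of -0.01, -0.23 and -0.20, and the 37 with 23 to 25 bases -0.32, -0.23 and 0.10. At 6 dpa 8 of the 15 were above the cut-off and 6 below it, beside 38.5% and 43.4% of all 143. Of the 77, 29 were above and 34 below. The 15 include let-7b itself and let-7i-3p, and the part of tag length in these values was not tested. More let-7b and more let-7b reads that end at this base cannot be told apart from the deposited values.

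The miRNAs nearest to let-7b in their 3 log2 fold changes, among 115 others with at least 10 reads in every library, were miR-200c-3p, miR-193b-3p and miR-27d-3p. miR-200c-3p, one of the epidermal miRNAs above, lay at a distance of 0.413 and had 9792, 4083, 21860 and 22814 reads at 0, 3, 6 and 14 dpa. Its log2 fold changes were -0.36, 1.92 and 1.45. miR-193b-3p (distance 0.813) was at -0.08, 1.67 and 1.63, and miR-27d-3p (0.825) at -0.04, 1.58 and 1.34. Neither is in the list of epidermal miRNAs. Of the 6 epidermal miRNAs, 2 were above 0 dpa and 4 below it at 3 dpa. At 6 dpa 4 were above and 2 below, and likewise at 14 dpa. miR-203a-3p held most of their reads at these stages (126034 at 6 dpa and 169465 at 14 dpa), while miR-205-5p was below 0 dpa at -0.73 and -0.63 and miR-200b at -0.58 and -0.42. The part of epidermal cells in the let-7b values was not tested.

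let-7c, which differs from let-7b by 1 base over the shared length, had 4760, 1619, 1130 and 2647 reads at 0, 3, 6 and 14 dpa. In scaled cpm these are 2640, 1680, 1062 and 1727. It was below 0 dpa at each stage, by a log2 fold change of -0.65 (-0.73 to -0.57), -1.31 (-1.41 to -1.22) and -0.61 (-0.68 to -0.54) at 3, 6 and 14 dpa. The 3 dpa value was -0.578 and just within the cut-off with the upper quartile. The intervals at 3 and 14 dpa overlap, and the 14 dpa value ranged from -1.41 to -0.23 under the alternatives. The ratio to let-7a, which needs no scaling, was nearer to that of 0 dpa at 14 dpa than at 3 or 6 dpa, at 0.120 (0.116 to 0.123), 0.0681 (0.0647 to 0.0716), 0.0593 (0.0558 to 0.0629) and 0.105 (0.101 to 0.109).

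let-7j had 6600, 5210, 1589 and 2477 reads at 0, 3, 6 and 14 dpa, or 3660, 5407, 1493 and 1616 scaled cpm. The 0 and 3 dpa libraries were high and the 6 and 14 dpa libraries low. Its log2 fold change over 0 dpa was 0.56 (0.51 to 0.62), -1.29 (-1.37 to -1.21) and -1.18 (-1.25 to -1.11) at 3, 6 and 14 dpa. Between 6 and 3 dpa it was -1.86 (-1.94 to -1.78), in a step where let-7b had 2.76.

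let-7e had 1943, 2026, 2601 and 1782 reads at 0, 3, 6 and 14 dpa, or 1077, 2103, 2444 and 1163 scaled cpm. It was high at 3 and 6 dpa, with log2 fold changes over 0 dpa of 0.96 (0.87 to 1.06) and 1.18 (1.10 to 1.27), the second of which was 0.46 and within the cut-off with total reads. At 14 dpa it was at 0.11 (0.02 to 0.20), and at -0.69 with total reads and -0.12 with the upper quartile. Per read of let-7a there were 0.0488 (0.0466 to 0.0511), 0.0852 (0.0814 to 0.0892), 0.136 (0.131 to 0.142) and 0.0705 (0.0672 to 0.0740) reads of let-7e in stage order, so the highest ratio was at 6 dpa.

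With TMM scaling, let-7g stayed within the cut-off at each stage. It had 6994, 5152, 4737 and 5510 reads, or 3878, 5347, 4451 and 3595 scaled cpm. Its log2 fold change over 0 dpa was 0.46 (0.41 to 0.52), 0.20 (0.15 to 0.25) and -0.11 (-0.16 to -0.06) at 3, 6 and 14 dpa. The value at 6 dpa turned to -0.52 with total reads and -0.20 with the upper quartile, and that at 14 dpa to 0.27 with the 3 dpa library as the TMM reference, but was -0.91 with total reads. let-7g and let-7j could not be told apart at 3 dpa, where they held 0.572% (0.556 to 0.587) and 0.578% (0.563 to 0.594) of the miRNA reads.

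let-7h was near the detection floor in 3 of the 4 libraries. It had 110, 1, 1 and 1 reads at 0, 3, 6 and 14 dpa, where a count of 0 would allow up to 3 reads. The ratios over 0 dpa rest on that single read and were -5.76 (-11.19 to -3.37), -5.89 (-11.34 to -3.51) and -6.36 (-11.86 to -4.04) on the log2 scale at 3, 6 and 14 dpa. The tag differs by 1 base from that of let-7g. Reads of let-7h came to 1.57% of the reads of let-7g at 0 dpa, and to 0.0194, 0.0211 and 0.0181% at 3, 6 and 14 dpa.

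let-7i-3p, the passenger strand of let-7i, was also scarce, with 32, 27, 3 and 7 reads. Its log2 fold change over 0 dpa was 0.66 (-0.14 to 1.44), -2.61 (-5.01 to -0.98) and -1.94 (-3.38 to -0.75) at 3, 6 and 14 dpa. The interval at 3 dpa includes 0, and the value was 0.28 with total reads. A 5p arm of let-7i is not among the miRNAs listed.

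**Figure D3:**
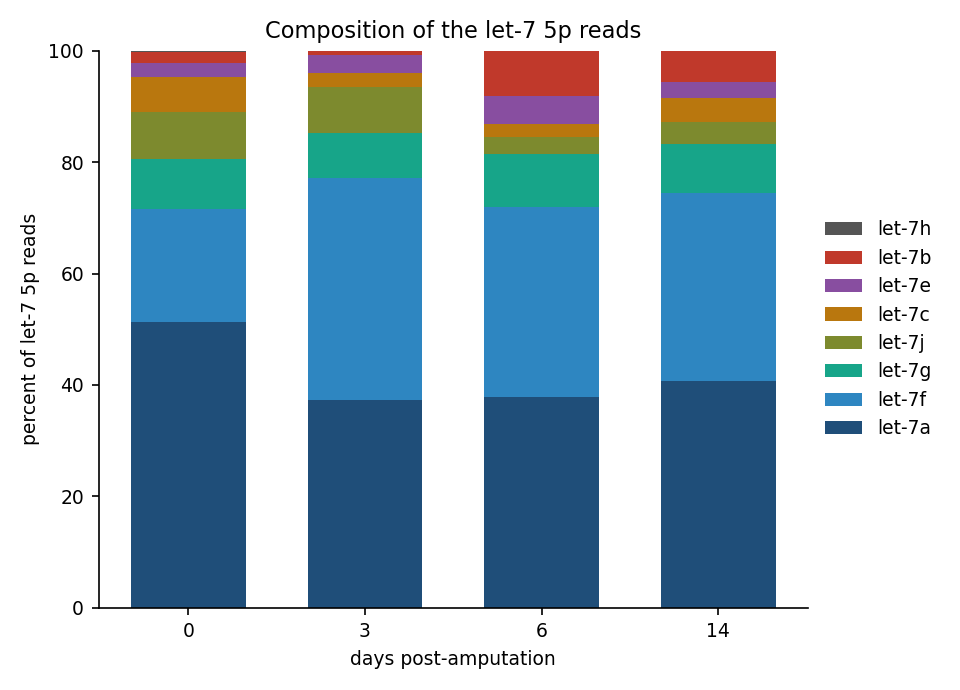
Share of each let-7 5p miRNA in the summed let-7 5p reads of a library, in percent, at 0, 3, 6 and 14 dpa. let-7a takes 40.7% or less after 0 dpa and let-7f 33.7% or more, and let-7b takes 8.03% at 6 dpa; let-7h is too small to see.

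Since the 8 let-7 5p miRNAs share a seed, their summed reads count the tags that carry it. The sum was 77681, 63769, 50418 and 62049 reads at 0, 3, 6 and 14 dpa, or 43075, 66182, 47378 and 40486 scaled cpm. It was higher at 3 dpa than at 0 dpa, by 0.62 (0.60 to 0.63) on the log2 scale, and between 0.24 and 0.69 under the alternatives. At 6 dpa the sum was at 0.14 (0.12 to 0.15) with TMM, but at -0.58 with total reads and -0.26 with the upper quartile. At 14 dpa it was at -0.09 (-0.10 to -0.07), and at 0.29 with the 3 dpa library as reference and 0.0039 with the median of ratios.

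As a share of all miRNA reads, the let-7 sum was 5.99, 7.08, 3.99 and 3.23% in stage order. With miR-21 taken out of the total it was 6.10, 13.1, 7.02 and 5.36%. The share was highest at 3 dpa in both, whereas the place of 6 dpa relative to 0 dpa depended on the total used. No direction of the summed let-7 level at 6 or 14 dpa can therefore be stated from these libraries.

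The make-up of the let-7 reads did differ between the libraries of the stages beyond counting error, and it needs no scaling. let-7a made up 51.2% (50.9 to 51.6), 37.3% (36.9 to 37.7), 37.8% (37.4 to 38.2) and 40.7% (40.3 to 41.1) of the let-7 5p reads at 0, 3, 6 and 14 dpa. let-7f made up 20.4% (20.1 to 20.6), 39.9% (39.5 to 40.3), 34.2% (33.8 to 34.6) and 33.7% (33.3 to 34.1). The sum of both thus kept most of the reads in each library, with a different split at 0 dpa. Without let-7b in the total, let-7a made up 52.4, 37.6, 41.1 and 43.1% and let-7f 20.8, 40.2, 37.2 and 35.7% in stage order. The near-equal shares of let-7a at 3 and 6 dpa thus depend on the let-7b tag.

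Of the lesser members, let-7b made up 2.14, 0.848, 8.03 and 5.59% in stage order and let-7j 8.50, 8.17, 3.15 and 3.99%. let-7c made up 6.13, 2.54, 2.24 and 4.27%, and let-7e 2.50, 3.18, 5.16 and 2.87%. let-7g stayed between 8.08 and 9.40%. Among let-7b, let-7j, let-7c and let-7e, the order at 0 dpa was let-7j, let-7c, let-7e, let-7b, and at 6 dpa it was let-7b, let-7e, let-7j, let-7c.

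miR-100 and miR-99 share a seed and differ by 2 bases at their 3′ side, and they lay on opposite sides of their 0 dpa levels at 6 dpa. miR-100 had 5577, 4526, 5990 and 6483 reads at 0, 3, 6 and 14 dpa, or 3093, 4697, 5629 and 4230 scaled cpm. miR-99 had 584, 323, 116 and 171 reads, or 324, 335, 109 and 112 scaled cpm. On this scale miR-100 was highest at 6 dpa, but its share of the miRNA reads was highest at 3 dpa, at 0.502% against 0.474% at 6 dpa. The 6 and 14 dpa levels of miR-99 did not differ beyond counting error, with a log2 fold change of 0.03 (-0.31 to 0.39) at 14 over 6 dpa.

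The log2 fold change of miR-100 over 0 dpa was 0.60 (0.55 to 0.66) at 3 dpa and 0.86 (0.81 to 0.92) at 6 dpa. Neither call held under every scaling, since the 3 dpa value was 0.22 with total reads and 0.48 with the median of ratios, and the 6 dpa value 0.14 with total reads and 0.46 with the upper quartile. The 14 dpa value was 0.45 (0.40 to 0.50), and ranged from -0.35 with total reads to 0.83 with the 3 dpa library as reference. miR-99 was at 0.05 (-0.15 to 0.25, and -0.33 with total reads), -1.57 (-1.87 to -1.28) and -1.54 (-1.79 to -1.29) at 3, 6 and 14 dpa. Within a library there were 9.55 (8.77 to 10.4), 14.0 (12.5 to 15.7), 51.6 (43.0 to 62.6) and 37.9 (32.6 to 44.4) reads of miR-100 per read of miR-99 at 0, 3, 6 and 14 dpa. The intervals at 6 and 14 dpa lie above those at 0 and 3 dpa. Each of these miRNAs is counted on 1 tag of 21 bases. The part of reads with other 3′ ends in the miR-100 to miR-99 ratio was not tested.

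**Figure D4:**
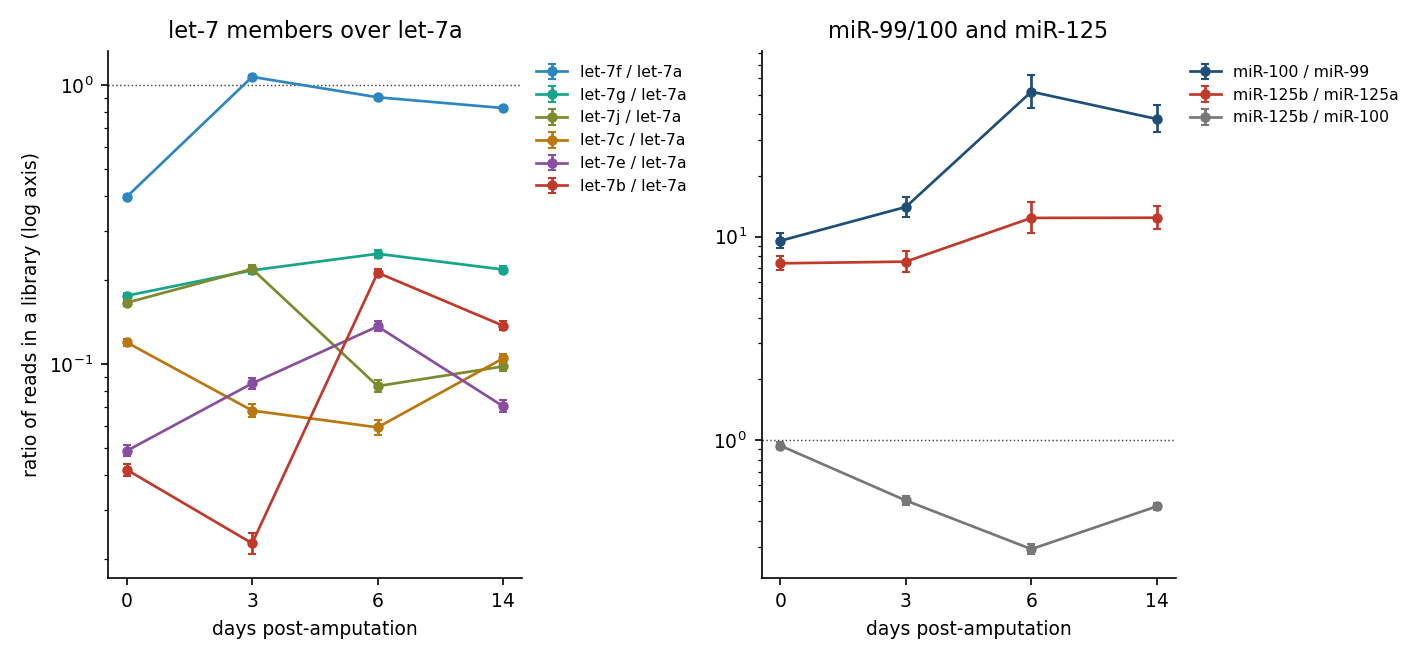
Ratios of reads within a library at 0, 3, 6 and 14 dpa (log axes) with 95% counting intervals: let-7 miRNAs over let-7a (left), and miR-100 over miR-99, miR-125b over miR-125a and miR-125b over miR-100 (right); the dotted line marks equal reads. let-7f over let-7a goes past 1 at 3 dpa, and miR-100 over miR-99 reaches 51.6 at 6 dpa.

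miR-125b and miR-125a were both lower in regenerating tissue. miR-125b had 5241, 2286, 1745 and 3064 reads at 0, 3, 6 and 14 dpa, or 2906, 2372, 1640 and 1999 scaled cpm. miR-125a had 708, 303, 141 and 247 reads, or 393, 314, 132 and 161 scaled cpm. miR-125b was lowest at 6 dpa, whereas miR-125a at 14 over 6 dpa was, with TMM, at 0.28 (-0.02 to 0.59), within counting error of no difference.

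Over 0 dpa, miR-125b was at -0.29 (-0.36 to -0.22), -0.83 (-0.90 to -0.75) and -0.54 (-0.60 to -0.48) at 3, 6 and 14 dpa. miR-125a was at -0.32 (-0.52 to -0.12), -1.57 (-1.84 to -1.30) and -1.28 (-1.50 to -1.07). These 6 values were below 0 under every scaling tried. With TMM scaling the 3 dpa values and miR-125b at 14 dpa were within the cut-off. With total reads they were past it, at -0.67, -0.70 and -1.34. With the upper quartile the 3 dpa values were -0.22 and -0.25. miR-125b at 14 dpa was at -0.77 with the upper quartile, -0.45 with the median of ratios and -0.16 with the 3 dpa library as reference. The ratio of miR-125b to miR-125a was 7.40 (6.84 to 8.02) at 0 dpa and 7.54 (6.69 to 8.53) at 3 dpa, which do not differ beyond counting error, and 12.4 (10.4 to 14.8) at 6 dpa and 12.4 (10.9 to 14.2) at 14 dpa.

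In mammals the cluster exists as miR-100 with let-7a and miR-125b, as miR-99a with let-7c and miR-125b, and as miR-99b with let-7e and miR-125a. Positions in the axolotl genome were not analysed here, and whether these tags come from shared transcripts is not known from the files. At 6 dpa, over 0 dpa, miR-99, let-7c and miR-125b were at -1.57, -1.31 and -0.83, all below the cut-off. At 3 dpa they were at 0.05, -0.65 and -0.29, and only let-7c was below it. The 14 dpa values were -1.54, -0.61 and -0.54, with miR-125b within the cut-off. Per read of let-7c there were 0.1227, 0.1995, 0.1027 and 0.0646 reads of miR-99 at 0, 3, 6 and 14 dpa. At 6 dpa over 0 dpa, miR-100 and let-7a were at 0.86 and -0.30, and let-7e and miR-125a at 1.18 and -1.57. The tags are set beside the mammalian clusters by name only, and their sequences were not compared with mammalian ones. The ratio of miR-125b to miR-100 was 0.940 (0.905 to 0.976), 0.505 (0.480 to 0.531), 0.291 (0.276 to 0.307) and 0.473 (0.453 to 0.493) at 0, 3, 6 and 14 dpa. The reads of both were nearly equal at 0 dpa, and miR-100 exceeded miR-125b most at 6 dpa.

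**Figure D5:**
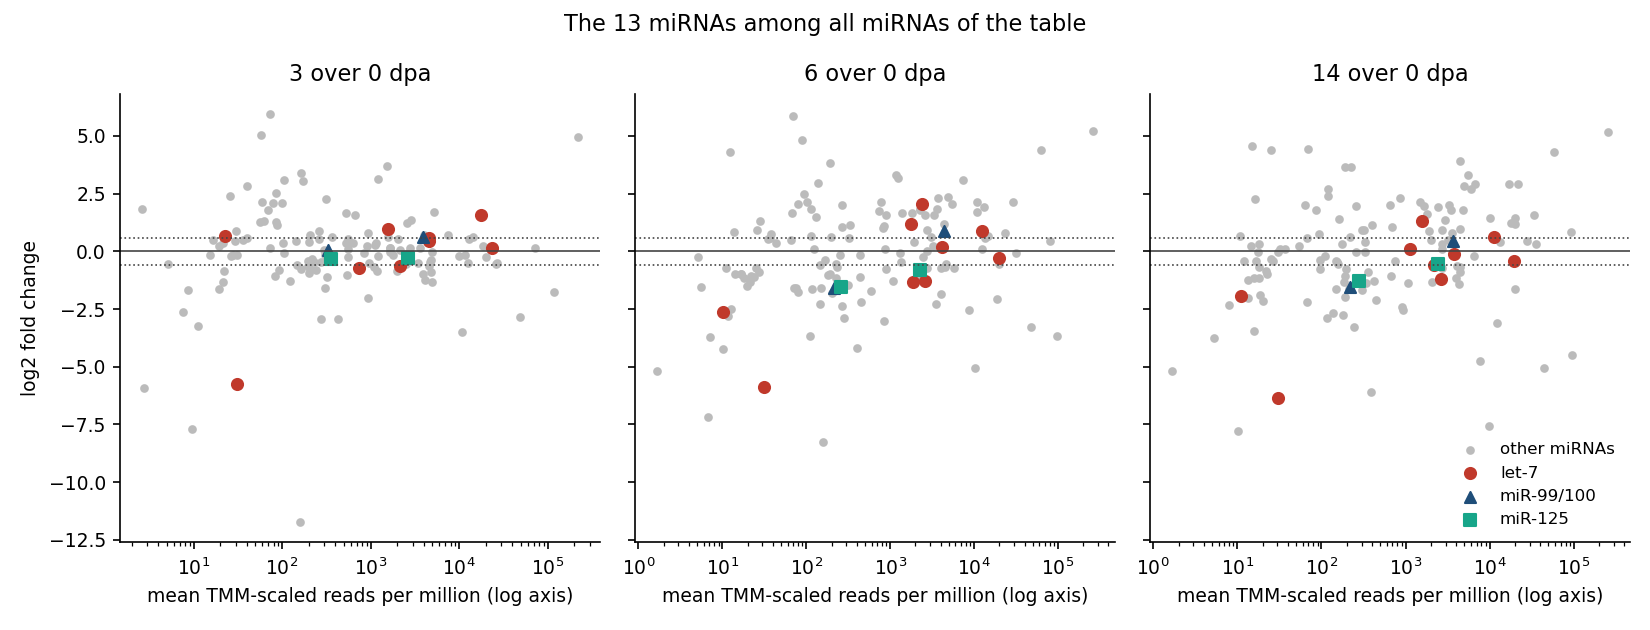
Log2 fold change over 0 dpa against the mean TMM-scaled cpm (log axis) of all 143 miRNAs at 3, 6 and 14 dpa; circles are let-7, triangles miR-99 and miR-100, squares miR-125 and grey points the other miRNAs. The members are spread over the range of the others on both sides of 0, and let-7h is the lowest member in each panel, at -5.76, -5.89 and -6.36.

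Genes of these miRNA pathways were looked up in the mRNA libraries of the same stages, which hold 15249786, 36931886, 19049794 and 18581310 reads at 0, 3, 6 and 14 dpa. Of 32 genes listed for their known roles, 8 are paired with an axolotl transcript in the study's tables as held here. These tables list transcripts by their change at 6 dpa, so the directions are not independent evidence. At 3 dpa 3 of the 8 were above the cut-off and 1 below it, where 37.5% and 28.6% of the 78124 transcripts with at least 10 reads in both libraries together were. At 6 dpa 3 were above (33.5%) and 1 below (30.8%), and at 14 dpa 4 were above (33.1%) and 1 below (33%). Since the listing depends on the change at 6 dpa, nothing about the genes is read from these counts.

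*dicer1* encodes the enzyme that cuts miRNA precursors. Its transcript comp7713_c0_seq1 had 57, 221, 272 and 258 reads at 0, 3, 6 and 14 dpa, with log2 fold changes over 0 dpa of 0.47 (0.05 to 0.92), 1.43 (1.02 to 1.87) and 1.44 (1.02 to 1.88). Of the 3 transcripts paired with *dicer1*, another, comp6545_c0_seq1, was at -0.06 (-0.72 to 0.63), 1.46 (0.85 to 2.11) and 1.44 (0.84 to 2.11). Both were higher at 6 and 14 dpa than at 0 dpa, and only comp7713_c0_seq1 had an interval above 0 at 3 dpa. The remaining transcript, comp46257_c0_seq1, had only 6, 22, 40 and 21 reads. It was at 0.39 (-0.95 to 1.99), 1.90 (0.67 to 3.45) and 1.06 (-0.29 to 2.66), so its intervals at 3 and 14 dpa include 0. All 3 transcripts were paired through the study's list of transcripts that rose. A higher level at 6 dpa was thus a condition of being listed, and their shared direction there is not a result.

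The other genes are known as let-7, miR-99, miR-100 or miR-125 targets in mammals. *mycn*, a growth-promoting transcription factor, had 134, 2142, 904 and 746 reads of comp33761_c0_seq1, or 2.52 (2.27 to 2.78), 1.93 (1.67 to 2.21) and 1.74 (1.47 to 2.01) over 0 dpa. *prdm1*, a repressor of transcription, had 46, 5191, 1730 and 580 reads of comp40276_c0_seq1, or 5.34 (4.92 to 5.79), 4.41 (3.99 to 4.87) and 2.91 (2.48 to 3.38). A second paired transcript of *prdm1*, comp40276_c0_seq2, had 0, 1978, 492 and 0 reads. In scaled cpm, *mycn* and *prdm1* were highest at 3 dpa.

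*igf2bp3*, an RNA-binding protein of growing tissue, had 112, 377, 280 and 577 reads of comp35638_c0_seq1, or 0.27 (-0.04 to 0.59), 0.50 (0.18 to 0.83) and 1.62 (1.33 to 1.93), and so was highest at 14 dpa. *mycb*, a zebrafish name for a *myc* gene, had 399, 2053, 594 and 465 reads of comp15578_c0_seq1, or 0.88 (0.73 to 1.04), -0.25 (-0.43 to -0.06, and 0.25 with total reads) and -0.52 (-0.72 to -0.32). *cdc25*, a cell cycle phosphatase, is paired with 4 transcripts that differ.

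Its most abundant one, comp38545_c0_seq2, which is the one counted, stayed within the cut-off with 815, 1918, 1489 and 1753 reads. A second, comp34320_c0_seq1, had 113, 2545, 794 and 2025 reads and was at 3.01 (2.74 to 3.30), 1.99 (1.71 to 2.29) and 3.42 (3.15 to 3.71) over 0 dpa. Another, comp27174_c0_seq2, had 41, 744, 82 and 250 reads and was at 2.70 (2.25 to 3.19), 0.18 (-0.38 to 0.76) and 1.87 (1.39 to 2.38), and comp27174_c0_seq3 had 0, 90, 143 and 104 reads. No single direction of *cdc25* follows from these transcripts. For the first, the sum over its assembled component had the other sign at 6 dpa (-0.47 against 0.05) and at 14 dpa (-0.27 against 0.36).

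*fgfr3*, a growth factor receptor, had 153, 53, 31 and 6 reads of comp39794_c0_seq9, a log2 fold change of -5.39 (-6.88 to -4.26) at 14 dpa over 0 dpa. The sum over its component of 12 transcripts was at -0.76, -0.56 and -1.28 at 3, 6 and 14 dpa, so that the call at 6 dpa, where the transcript was at -3.12 (-3.73 to -2.56), did not hold for the sum. *igf1r*, the receptor of insulin-like growth factor, was within the cut-off at each stage, with 355, 765, 722 and 627 reads of comp35788_c0_seq1. Scaled by total reads, *dicer1* at 3 dpa (0.68), *igf1r* at 6 dpa (0.70) and *cdc25* at 14 dpa (0.82), and also *igf2bp3* at 6 dpa, were above the cut-off too. No pairing of miRNA and target was tested with these values.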

How the data were processed

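Per the study's methods, the authors clipped and trimmed the small RNA reads and collapsed them with the FASTX Toolkit, and 20 to 25 nt tags were matched to miRBase 21 by miRMiner. Trimmomatic, Trinity and RSEM served to trim, assemble and count the mRNA reads. Tool versions are not given in the sources used here. The deposited values are log2 values of whole reads (largest relative deviation 3.46e-09), not scaled to library size. An error mark (7 entries, 0 in these miRNAs) was read as 0 reads. An mRNA entry of 0, which as a log2 value could also stand for 1 read, was read as 0 reads. Read as 1 read instead, it left all 24 fold changes of the transcripts taken within their counting intervals. The error marks stand among the log2 values and other entries of the deposited 3, 6 and 14 dpa small RNA columns.

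Reads were scaled by TMM (0 dpa reference, trims of 30% and 5%) in Python 3.11.15 with NumPy 2.4.6. A prior count of 0.125, scaled to library size, was added for fold changes, and 95% intervals are exact (Clopper-Pearson, SciPy 1.17.1). Scaling and intervals were tested on simulated data in which most miRNAs and transcripts did not change. That test does not cover shifts in composition as wide as those between these libraries. mRNA backgrounds count transcripts with at least 10 reads over both libraries. All 13 miRNAs are named, with the 3 nearest to let-7b by Euclidean distance over 3 log2 fold changes and, likewise, the 3 nearest to the let-7 sum. Of several transcripts of a gene, that with the highest mean level was taken. The members and lists were chosen with earlier results of these data known. Sequences come from the study's list. The authors' fold changes were not used as values, but each pair of gene and transcript stands in their lists of transcripts that rose or fell.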

Additional observations from a re-analysis of the deposited data

How the results depend on the processing

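Each stage has 1 library, so no replicate could be left out. No paired analysis was possible because the stages have 1 sample each. Scaling by total reads moved the median of all miRNAs' log2 fold changes by -0.38 at 3 dpa, -0.71 at 6 dpa and -0.80 at 14 dpa, which carries over to every member. The let-7 5p sum over 0 dpa, 0.62, 0.14 and -0.09 at 3, 6 and 14 dpa with TMM, was 0.24, -0.58 and -0.89 with total reads, 0.69, -0.26 and -0.32 with the upper quartile, and 0.50, 0.20 and 0.0039 with the median of ratios. At 6 and 14 dpa it was 0.34 and 0.29 with the 3 dpa library as reference. With the 13 members left out of the scaling it was 0.64, 0.057 and -0.20, without miR-21 in the scaling -0.16 at 14 dpa, and with miRNAs under 10 reads in any library removed 0.034 at 6 dpa. Members above the cut-off numbered 2, 1 and 0 at the 3 stages with total reads, and below it 5 at 3 dpa and 10 at 14 dpa. With the median of ratios 2 were above at 3 dpa, with the upper quartile 2 at 6 dpa and 1 at 14 dpa, and with miR-21 or the members left out of the scaling 1 at 14 dpa. A cut-off of 1 left 1, 2 and 1 above, and 1 below at 3 dpa. let-7f at 14 dpa, 0.64, turned to -0.16 with total reads. Leaving let-7b out of the let-7 5p total moved 14 of the other members' shares outside their counting intervals and left 14 within them. Prior counts of 0.5 and 1 left the member and family values within their counting intervals. The cause of these differences beyond the scaling itself was not tested.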

Other observations

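The miRNAs nearest to the summed let-7 5p reads in their 3 log2 fold changes were miR-365-1-3p, miR-454a-3p and miR-126a-5p, out of the 115 considered. miR-365-1-3p had 1524, 953, 967 and 983 reads at 0, 3, 6 and 14 dpa, and log2 fold changes over 0 dpa of 0.23, 0.10 and -0.40. miR-126a-5p, an miRNA of endothelial cells, had 2991, 2340, 2354 and 3619 reads, and log2 fold changes of 0.55, 0.42 and 0.51. miR-454a-3p had 279, 245, 254 and 299 reads, and 0.72, 0.63 and 0.33.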
